A study of Mus musculus with 17 samples.

Results

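The 34 genes described here belong to the response to interferon gamma and to the presentation of peptides on MHC class I. They comprise 10 interferon-induced GTPases, 3 transcription regulators, 5 immunoproteasome genes, 6 genes of peptide trimming and loading, 8 class I chains and 2 chemokines. They were taken by gene symbol, and all 34 were found among the 27240 symbols of the count table and were kept among the 20137 genes tested. Their transcripts were measured by bulk RNA sequencing of CD8 T cells sorted from mouse lung tumours. The mice were either WT or lacked PD-L1, which restrains T cells through PD-1, in the endothelium (KO). Core-enriched cells came from macroscopic nodules and rim-enriched cells from parenchymal nodules. The 17 libraries comprised 5 of WT core (F164, H719, H873, H876 and a pool), 6 of KO core (F219, F318, F319, F322, F86 and O), 2 of WT rim (H874 and H877) and 4 of KO rim (F15, F322, F86 and O). The sources used here name neither the tumour model nor the Cre line nor the ages of the mice, and the labels do not say whether an identifier marks 1 animal. The spread between libraries behind each p-value may therefore be technical.

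Interferon gamma is made by activated T and natural killer cells and acts through a receptor of the chains IFNGR1 and IFNGR2 and the kinases JAK1 and JAK2. Promoters of responding genes carry gamma-activated sites (GAS) or interferon-stimulated response elements (ISRE), the latter bound by IRF1 and other IRF proteins. The induced genes include GTPases that attack membrane-enclosed pathogens, and the catalytic subunits that turn the proteasome into the immunoproteasome, whose peptides the TAP transporter carries into the endoplasmic reticulum for loading onto class I molecules. CD8 T cells read such complexes on other cells and also carry class I molecules of their own.

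Libraries held between 21767045 and 32566456 counts, so that 3 counts corresponded to between 0.0919 and 0.141 CPM (the count scaled to a common library size). The 6 T cell and CD8 markers (Cd3d, Cd3e, Cd3g, Cd8a, Cd8b1 and Cd2) were above 0 in every library and summed to between 3630 and 7690 CPM. Transcripts of other cell types were present too. The 10 macrophage and monocyte markers summed to between 1650 and 5050 CPM in WT core, 1540 and 4720 in KO core, 1030 and 1690 in WT rim and 551 and 6760 in KO rim, with Marco at 0 in 5 libraries. In WT core against rim 2 of those 10 were called, both higher in core, among them C1qb (log2 fold change 3.45, adjusted p = 0.0328). Cd274, which encodes PD-L1, had log2 fold changes (KO over WT) of -0.15 (SE 0.212) in core and -0.063 (SE 0.303) in rim, which checks nothing of a deletion made in endothelial cells. Reads from 4 Y-linked genes summed to between 449 and 511 CPM in both F322 and both O libraries and to 103 CPM in the WT core pool, with at most 0.179 CPM elsewhere.

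Promoter windows from RefSeq (GRCm38, 250 bases before to 50 after the start of a gene) were found for 27 of the 34 genes, in 32 windows. Gbp4, Gbp6, Iigp1, Nlrc5, Tap2, Tapbpl and H2-Q5 had none. Windows were searched on both strands for TTCNNNGAA (the GAS), the ISRE (GAAA, any 2 bases, GAAA) and its shorter part AANNGAAA, which every ISRE match contains. TTCNNNGAA stood in the windows of 7 of the 27 genes and in 8.3% of all 32851 windows. The ISRE stood in those of 13 of the 27 and in 3.44% of all windows, and AANNGAAA in those of 17 of the 27 and in 23.9% of all windows. Counted by window like the background, the motifs stood in 7, 13 and 18 of the 32 member windows (21.9%, 40.6% and 56.2%), in that order. The roles differed in what they carried. All 7 GTPases with a window held the ISRE, and 4 of them the GAS as well. All 7 class I chains with a window held AANNGAAA, 3 of them within a full ISRE, and none held the GAS. A match describes letters and shows no binding.

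The 160 bases before the start are shown for the 5 members with a window that had the smallest adjusted p for core against rim in WT, Psmb9, Irf1, Psmb8, Gbp3 and H2-K1, of which the first 3 were called. Motif matches are in capitals. H2-Q5, with the smallest adjusted p of all members, has no window. In the order printed, they lie at chr11:53769854-53770013 (+), chr17:34198035-34198194 (+), chr17:34187331-34187490 (-), chr17:34000348-34000507 (-) and chr3:142559884-142560043 (+).
Irf1: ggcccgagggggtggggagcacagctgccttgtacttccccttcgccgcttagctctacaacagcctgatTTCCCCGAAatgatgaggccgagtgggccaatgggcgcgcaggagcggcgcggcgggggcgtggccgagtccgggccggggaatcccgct
Psmb8: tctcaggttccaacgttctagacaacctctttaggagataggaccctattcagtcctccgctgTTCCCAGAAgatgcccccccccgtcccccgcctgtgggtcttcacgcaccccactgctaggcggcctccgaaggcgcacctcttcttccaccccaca
Psmb9: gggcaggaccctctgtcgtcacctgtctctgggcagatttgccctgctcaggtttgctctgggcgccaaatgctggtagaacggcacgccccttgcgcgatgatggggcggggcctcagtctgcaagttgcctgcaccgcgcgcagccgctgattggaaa
H2-K1: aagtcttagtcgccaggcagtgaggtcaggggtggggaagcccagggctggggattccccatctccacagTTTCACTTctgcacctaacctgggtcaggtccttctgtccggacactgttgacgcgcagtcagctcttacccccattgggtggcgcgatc
Gbp3: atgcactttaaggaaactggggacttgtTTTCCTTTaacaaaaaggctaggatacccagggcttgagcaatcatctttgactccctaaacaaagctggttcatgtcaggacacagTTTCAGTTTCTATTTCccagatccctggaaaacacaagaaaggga
Irf1 and Psmb8 each held 1 GAS match, beginning 90 and 97 bases before the start. H2-K1 held AANNGAAA on the opposite strand at 90 bases before the start, and Gbp3 held 2 overlapping ISRE matches at 45 and 39 bases and a separate AANNGAAA at 132. Psmb9 held none of the 3 motifs in its window, which overlaps that of Tap1 by 275 bases on the opposite strand, the RefSeq starts of both genes lying 226 bases apart. All starts in these windows are those of RefSeq. For Psmb8, Psmb9 and Gbp3 they differ from the starts of the GENCODE spans given below.

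The GTPases Igtp and Irgm2 show both motifs side by side, and 60 bases of each are given from chr11:58199491-58199550 (+) and chr11:58214882-58214941 (+), with the capitals covering GAS and ISRE.
Igtp: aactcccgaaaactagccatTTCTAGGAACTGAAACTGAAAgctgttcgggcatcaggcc
Irgm2: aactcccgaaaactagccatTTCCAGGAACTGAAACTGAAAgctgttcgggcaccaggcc
The ISRE match began 11 bases after the first base of the GAS in both, and the stretches differed at 2 of 60 bases.

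Core against rim in WT was the only one of 4 group comparisons in which edgeR's quasi-likelihood test called any of the 34 genes. There, 4 of 34 were called at an adjusted p under 0.05, against 777 of all 20137 genes (3.86%). Psmb8 and Psmb9, catalytic subunits of the immunoproteasome, were higher in core, and the transcription factor Irf1 and the class I gene H2-Q5 were lower. The libraries of WT core and WT rim did not overlap for 17 of the 34 genes, against 19.8% of all genes tested. Of the 17, 10 were higher in core (10.1% of all genes) and 7 lower (9.68%). The median log2 fold change (core over rim) over the 34 was 0.15, with 19 positive, beside 0.033 over all genes. Without the WT rim library H874, which leaves WT rim with 1 library assumed to vary like the other groups, the fit called 68 genes in all and none of the 34, and the 4 members then stood at adjusted p between 0.239 and 0.437. Leaving out WT core H719 left 1 of the 34 called, and leaving out WT core H873, the WT core pool or KO core F322 left 2. Several lists of markers of other cells had one sign in the same comparison. All 10 macrophage and monocyte markers (median log2 fold change 2.1), all 6 of epithelium (2.21), all 5 of fibroblasts (1.7) and all 3 tested of neutrophils (1.21) were positive, and all 4 of B cells negative (-0.93), and their part in the members' values was not tested. With quality weights in limma voom none of the 34 was called, and DESeq2 called 7.

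**Figure D1:**
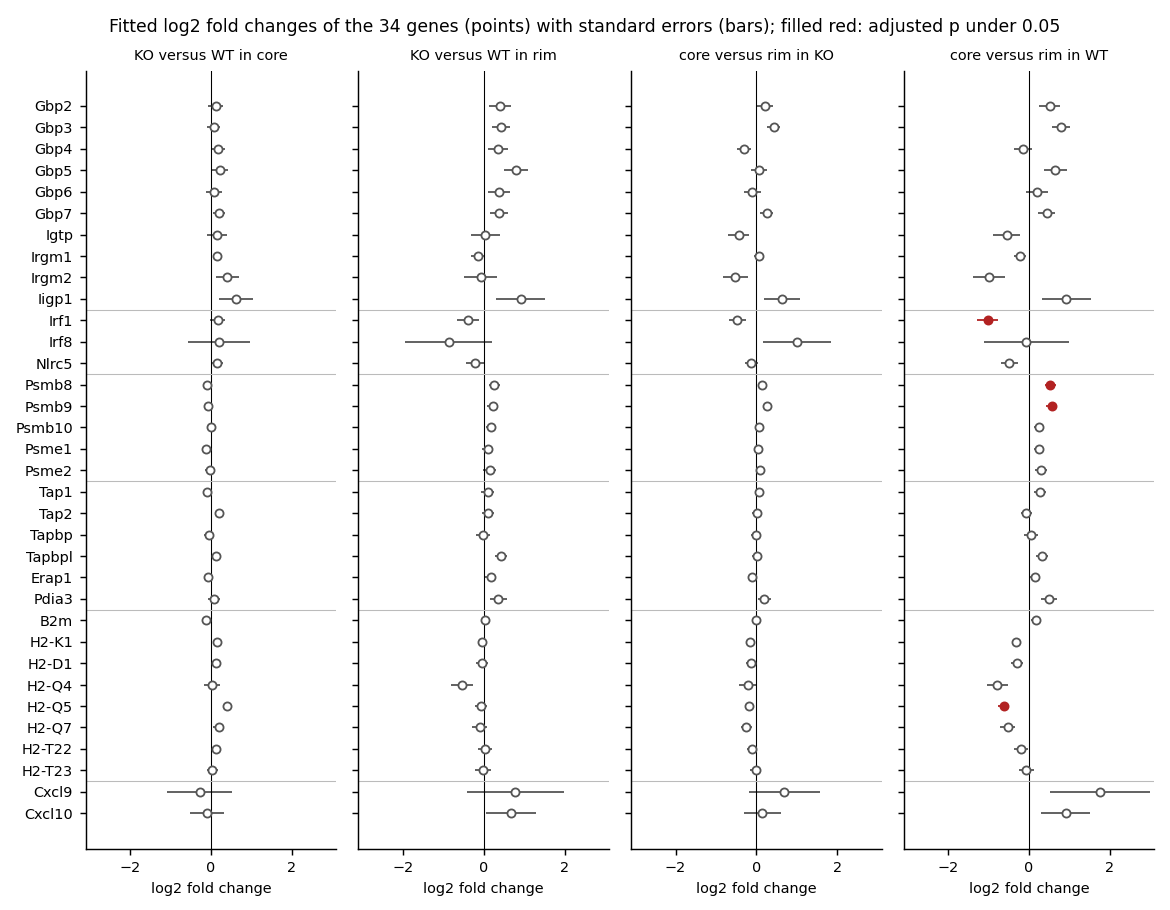
Fitted log2 fold changes (x axis, log2 units) of the 34 genes (y axis, in 6 role groups parted by grey lines) in 4 comparisons, with bars of 1 standard error and filled red points for genes called at an adjusted p under 0.05. The 4 filled points all lie in the panel of core versus rim in WT: Psmb8 and Psmb9 to the right of 0, Irf1 and H2-Q5 to the left.

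Loss of endothelial PD-L1 was compared within each site. In core, edgeR called 0 of the 34 genes and 0 of 20137 (0.00%), with 1 and 1244 (6.18%) at an unadjusted p under 0.05, and the median log2 fold change (KO over WT) over the 34 was 0.11, with 24 positive, beside -0.01 over all genes. In rim, edgeR called 0 of 34 and 0 of 20137 (0.00%), with 2 and 1480 (7.35%) at an unadjusted p under 0.05. The median over the 34 in rim was 0.11, with 22 positive, beside 0.011 over all genes. DESeq2 called 9 genes in core and 268 in rim, none of them among the 34, and limma voom with quality weights called 0 and 6, again none of the 34. Groups did not overlap for 1 member in core (0.397% of all genes) and for 5 in rim (13.7% of all genes). Of the 5, Gbp3, Gbp5, Psme2 and Tapbpl were higher in KO (6.86% of all genes) and H2-Q4 lower (6.81%).

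Core and rim were also compared within KO. Here edgeR called 0 of 34 genes and 0 of 20137 (0.00%), with 3 and 1600 (7.95%) at an unadjusted p under 0.05, and no member had groups that did not overlap (1.60% of all genes). DESeq2 called 35 genes and limma voom with quality weights 2, none of them members. The median log2 fold change over the 34 was 0.0078, beside 0.029 over all genes. Whether the effect of genotype differed between the sites was tested as an interaction. For it edgeR called 0 of 34 and 0 of 20137 (0.00%), with 2 and 1547 (7.68%) at an unadjusted p under 0.05, while DESeq2 called 161 genes and limma voom with quality weights 0, none of them members. The median over the 34 was -0.17, beside -0.012 over all genes. The 2 members were Psmb8 (interaction of -0.37, adjusted p = 0.631) and H2-Q5 (0.46, adjusted p = 0.586). The comparisons of KO with WT in rim and of core with rim in WT share both WT rim libraries, so that their values for 1 gene are not independent.

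**Figure D2:**
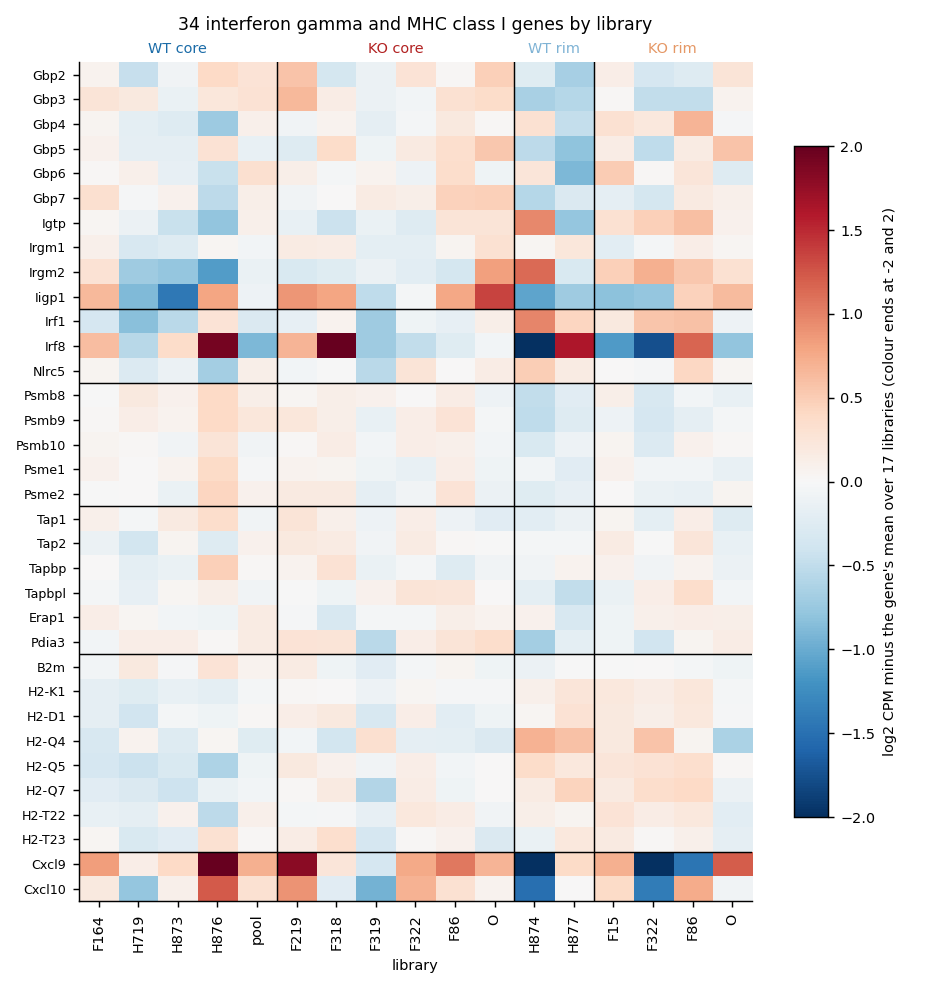
Level of each of the 34 genes (rows, in role groups) in each of the 17 libraries (columns, by group), as log2 CPM minus the mean of that gene over the libraries. Most rows are pale, while Irf8 and Cxcl9 show the strongest colours, with SDs within groups of 1.38 and 1.79 on the log2 scale.

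Most members varied little between libraries of a group. The SD of log2 CPM within groups had a median of 0.23 over the 34 genes, beside 0.323 over the 8988 tested genes whose mean reached 10 CPM. Those genes were not matched to the members by level, and member means ran from 16.8 CPM (H2-Q4) to 5850 (H2-D1). The SD was smallest for H2-K1 (0.0843) and B2m (0.116) and largest for Cxcl9 (1.79), Irf8 (1.38), Cxcl10 (0.785) and Iigp1 (0.779). Per kilobase of exon, the mean level over all libraries was highest for B2m, the light chain shared by class I molecules, at 5460 CPM per kilobase. H2-D1 and H2-K1, the classical heavy chains, followed at 2270 and 1220, and Pdia3, a disulfide isomerase of the loading complex, at 421. Lowest were Gbp5 at 3.11, H2-Q4 at 6.49 and Cxcl9 at 7.62 CPM per kilobase. Ifng itself stood at 147 CPM per kilobase, so the libraries held the transcript of the inducer together with those of the genes it induces.

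Among the 9 genes of the signal itself, which are not members, both receptor chains and Jak1 were lower in WT core than in WT rim. Ifngr1 (chromosome 10, 19591949 to 19610229, as are all gene positions here in the GENCODE annotation of GRCm38) measured 1070, 1100, 1170, 1190 and 1360 CPM in F164, H719, H873, H876 and the pool of WT core, and 2070 and 2160 in the WT rim libraries H874 and H877. In KO it measured between 1030 and 1650 in the 6 core libraries (median 1350) and 1870, 2120, 2090 and 1540 in F15, F322, F86 and O of rim. The WT groups did not overlap, and KO overlapped only through O in rim. The log2 fold change (core over rim) was -0.85 (SE 0.18, adjusted p = 0.0182) in WT and -0.50 (SE 0.143, adjusted p = 0.62) in KO. The call in WT ended without H874 (adjusted p = 0.134) or H877 (adjusted p = 0.0763). In a bulk sample, fewer cells of a type and less RNA per cell cannot be told apart.

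Ifngr2 encodes the chain that joins once interferon gamma is bound. It measured 37.3, 49.6, 33.3, 37.7 and 37.9 CPM in F164, H719, H873, H876 and the pool of WT core, against 277 and 53.2 in WT rim (H874, H877). The 6 KO core libraries lay between 27.8 and 88.8 (median 44.1), and KO rim measured 113, 199, 96.8 and 77.7 in F15, F322, F86 and O. Its log2 change in WT was -2.08 (SE 0.468, adjusted p = 0.0234). It rested on WT rim H874, without which it was -0.45 (adjusted p = 0.783), and the call also ended without WT core H873 (adjusted p = 0.0554). In KO it was -1.34 (SE 0.38, adjusted p = 0.62), with F318 the only core library above the lowest rim library.

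Jak1, the kinase that IFNGR1 carries, ran from 749 CPM in H876 to 1510 in the pool of WT core and measured 2150 and 2210 in the WT rim pair, with a log2 change of -0.92 (SE 0.209, adjusted p = 0.0239). That call ended without WT core H873, WT rim H874 or WT rim H877, at adjusted p between 0.0558 and 0.153. KO core ran from 1250 to 1780 (median 1640) and KO rim from 1440 to 2080. Of the 9 signalling genes, 0 were called higher and 3 lower in WT core than in WT rim (background 2.10% and 1.76%). With quality weights in limma voom, none of the 8 pathway genes called in WT core against rim was called (adjusted p between 0.0532 and 0.337). In edgeR with only the groups compared, Ifngr2, Jak1, Psmb7, Canx, H2-Q6 and H2-T10 were not called (adjusted p between 0.0858 and 0.134). Ifngr1 and Gbp2b still were (adjusted p = 0.0471 and 0.0418). Leaving out the identifiers F322 and O ended the calls of Ifngr2 (adjusted p = 0.0532) and Jak1 (adjusted p = 0.0536).

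Ifng, the cytokine, had the opposite sign and was not called. It measured 141, 409, 201, 132 and 222 CPM in F164, H719, H873, H876 and the pool of WT core, against 50.4 and 138 in WT rim (H874, H877), which overlapped through H876. KO rim measured 196, 145, 285 and 175 in F15, F322, F86 and O, all above both WT rim libraries, and KO core ran from 139 to 289 (median 172). The log2 fold change was 1.23 (SE 0.456, adjusted p = 0.155) for WT core over WT rim and 1.09 (SE 0.463, adjusted p = 0.642) for KO over WT in rim. DESeq2 called the first (adjusted p = 0.04) and edgeR did not. For WT core over rim it was 0.87 without WT core H719, 0.67 without WT rim H874 and 2.14 (adjusted p = 0.0558) without WT rim H877. For KO over WT in rim it was 0.54 without H874 and 2.01 without H877.

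**Figure D3:**
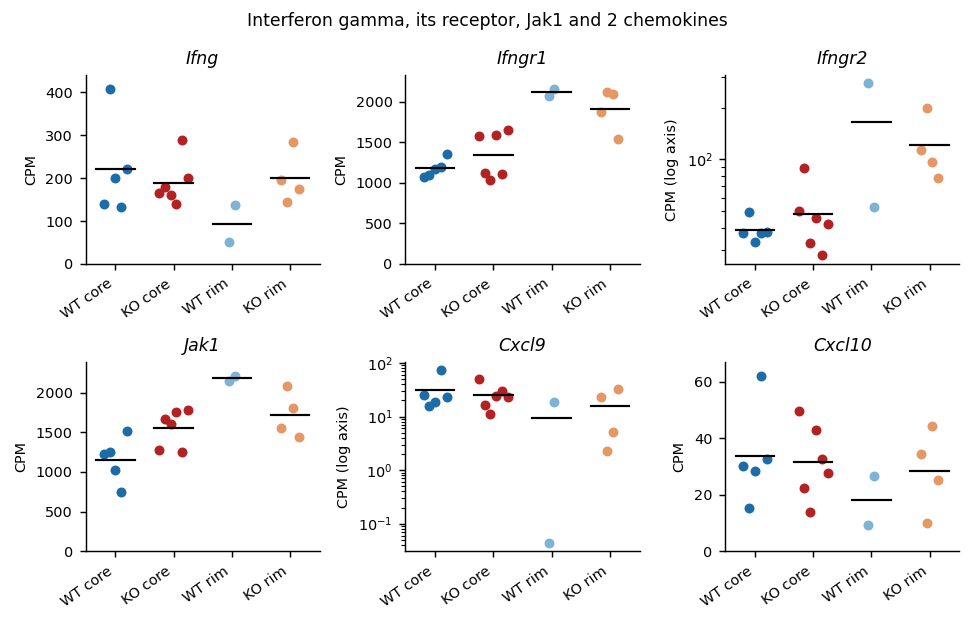
CPM (y axis, from 0, or on a log axis for Ifngr2 and Cxcl9) of 6 genes in each library (points) by group (x axis), with lines at the group means. Ifngr1 and Jak1 lie at 2070 CPM or more in both WT rim libraries and at 1510 CPM or less in all 5 WT core libraries, and Cxcl9 has 1 WT rim library at 0.0442 CPM.

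Irf1, an interferon-induced transcription factor (chromosome 11, 53770014 to 53778374), was lower in WT core than in WT rim. It measured 379, 267, 328, 577 and 392 CPM in F164, H719, H873, H876 and the pool, against 934 and 643 in H874 and H877. In KO it measured between 292 and 519 in core (median 436) and 548, 703, 718 and 443 in F15, F322, F86 and O of rim. The WT groups did not overlap, while in KO the rim library O lay within the core range. Its log2 change (core over rim) was -1.02 (SE 0.258, adjusted p = 0.0371) in WT and -0.47 (SE 0.206, adjusted p = 0.62) in KO. For KO over WT it reached 0.16 (SE 0.195) among core and -0.39 (SE 0.275) among rim libraries. The call in WT ended without any 1 of 8 libraries (WT core F164, H719, H873 and the pool, KO core F219 and F322, WT rim H874 and KO rim F15), at adjusted p between 0.0506 and 0.431.

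Nlrc5, the activator of class I genes, measured 370, 296, 330, 224 and 386 CPM in F164, H719, H873, H876 and the pool of WT core and 502 and 399 in H874 and H877 of WT rim, which do not overlap. Levels in KO core spanned 246 to 428 (median 358), and KO rim measured 361, 352, 478 and 366 in F15, F322, F86 and O. Its log2 fold change in WT was -0.49 (SE 0.208, adjusted p = 0.221) and did not pass, and it was -0.32 without WT rim H874.

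Irf8, a transcription factor of dendritic cells, macrophages and some effector T cells, spanned a 29.7-fold range. It measured 535, 236, 449, 1310 and 186 CPM in F164, H719, H873, H876 and the pool of WT core, and 70 and 1070 in WT rim (H874, H877). In KO core the range was 212 to 2080 (median 313), and KO rim measured 158, 103, 779 and 201 in F15, F322, F86 and O. Groups overlapped in every comparison, and none passed (log2 fold changes between -0.87 and 1, SE between 0.769 and 1.07). The 4 libraries highest in Irf8 (KO core F318, WT core H876, WT rim H877 and KO rim F86) were also the 4 highest in Flt3, a gene of dendritic cells picked from 8 after their values were seen, at 201, 104, 121 and 63.6 CPM, and WT rim H874 was the lowest in both, with Flt3 at 2.39. The same 4 were highest in Clec9a (31, 32.9, 16.7 and 14.6 CPM), which was at 0 in KO core F319 and KO rim F322. Not all dendritic cell markers followed that order. KO rim F86 was among the 3 lowest libraries in Xcr1 (16.9 CPM), Batf3 (0.629 CPM) and Zbtb46 (2.27 CPM), and KO core F318 had Xcr1 at 25.2 CPM against 82.5 in WT core H876. The 8 dendritic cell markers summed to between 671 and 3250 CPM, but Ccr7, which T cells also express, made up 3190 of the 3250 CPM in H874. The part of such cells in the Irf8 level was not tested.

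**Figure D4:**
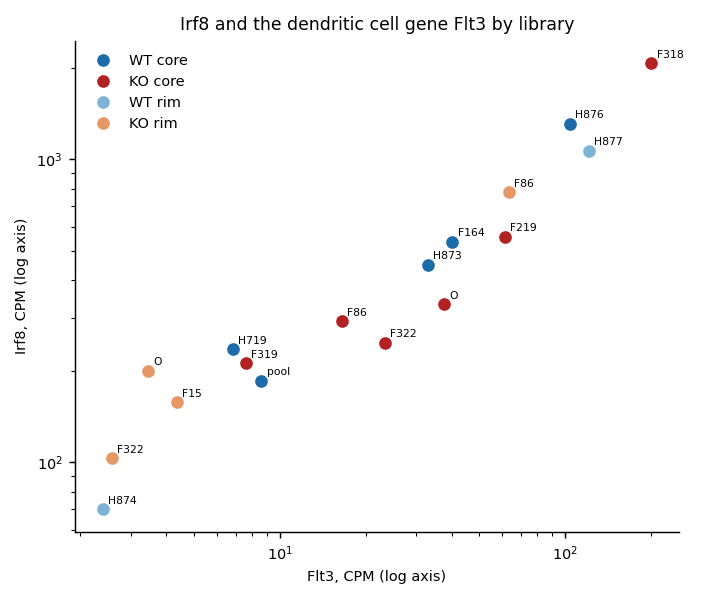
Irf8 (y axis, CPM, log axis) against the dendritic cell gene Flt3 (x axis, CPM, log axis) in the 17 libraries, coloured by group and named by identifier. Irf8 runs from 70 CPM in H874 to 2080 CPM in F318, with Flt3 at 2.39 and 201 CPM in the same libraries.

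The 10 GTPases comprise guanylate-binding proteins (Gbp2 to Gbp7), which coat and break pathogen membranes, and immunity-related GTPases (Igtp, Irgm1, Irgm2 and Iigp1). The main edgeR fit called none of them in any comparison. DESeq2, and edgeR with a stricter filter, called Gbp3 in WT core against rim, as given below. All 10 had positive log2 fold changes for KO over WT in core (0.06 to 0.62, median 0.17) and 8 of 10 in rim (median 0.38). Over all genes 48.4% were positive in core and 50.8% in rim. No adjusted p of the 10 was below 0.969 in core or 0.541 in rim. The 10 were measured in the same libraries, so that their signs are not independent. In rim all 10 macrophage and monocyte markers (median 1.91), all 6 of epithelium (1.67) and all 5 of fibroblasts (2.57) were positive too. All 8 markers of dendritic cells (median -0.78) and all 4 of B cells (-0.55) were negative there. In core all 10 macrophage and monocyte markers (median -0.4) and all 4 of B cells (-1.23) were negative, and all 6 of epithelium (0.34) positive. The part of such cells in the GTPase values was not tested. For WT core over WT rim, 6 of 10 were positive, and the family ran from Irgm2 at -0.99 (SE 0.384, adjusted p = 0.178) and Igtp at -0.55 (SE 0.329) to Gbp3 at 0.79 and Iigp1 at 0.92 (SE 0.6). Igtp and Irgm2 had their highest level of all libraries in H874, at 381 and 134 CPM, and Igtp was called in WT core against rim without H877, which leaves WT rim with 1 library. Gbp5 and Gbp7, whose windows also held both GAS and ISRE, measured 13.9 and 187 CPM in H874, Gbp7 at its lowest of all libraries. Any link of motifs to these levels was not tested. Reads of Igtp and Irgm2 are hard to separate. Their annotated spans overlap, and 11.8% of the 50-base stretches of Igtp transcripts also occur in Irgm2, so that reads may be divided between them. Gbp6 shares 70.7% of its stretches with other genes, mostly Gm43302, and Gbp7 shares 12.7%, so that their levels are uncertain too.

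Gbp3 (chromosome 3, 142560026 to 142573209) came closest to the threshold. It measured 72.2, 69.6, 55.3, 70.9 and 74.1 CPM in F164, H719, H873, H876 and the pool of WT core, and 38.4 and 40.5 in WT rim (H874, H877). The 6 KO core libraries lay between 55.9 and 94.6 (median 70.7), and KO rim measured 61.7, 43, 43 and 63.3 in F15, F322, F86 and O. Both WT rim libraries were below all other 15 libraries. The log2 fold change in WT was 0.79 (SE 0.218, adjusted p = 0.0532), and leaving out KO core F219 or F319, or KO rim F322, F86 or O, each gave a call (adjusted p between 0.0395 and 0.0488). On all libraries DESeq2 called it (adjusted p = 0.00833), as did edgeR with genes kept at a mean of at least 1 CPM. It was not called with quality weights in limma voom (adjusted p = 0.199) or with only the groups compared (adjusted p = 0.0867).

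Gbp5, which also promotes inflammasome assembly, measured 21.3, 17.7, 17.6, 24.5 and 18 CPM in F164, H719, H873, H876 and the pool of WT core, 13.9 and 11.5 in H874 and H877 of WT rim, and 22.2, 14.1, 22.3 and 29.7 in F15, F322, F86 and O of KO rim. KO core ran from 16.7 to 29.1 (median 24). The WT rim libraries were the 2 lowest of all 17. Its log2 change was 0.80 (SE 0.29, adjusted p = 0.541) for KO over WT in rim and 0.65 (SE 0.28, adjusted p = 0.231) for WT core over WT rim. Gbp4 had the highest CPM of the family. It measured 306, 256, 244, 178 and 314 CPM in F164, H719, H873, H876 and the pool of WT core, 363 and 210 in WT rim (H874, H877), between 258 and 337 (median 293) in KO core, and 364, 341, 467 and 288 in F15, F322, F86 and O of KO rim. Its groups overlapped in all 4 comparisons.

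A further guanylate-binding gene that is not a member, Gbp2b, was nearly absent from WT rim alone. It had 0 counts in H874 and 5 counts (0.235 CPM) in H877, against 16.8, 14.3, 13.9, 26.9 and 12.6 CPM in F164, H719, H873, H876 and the pool of WT core. Levels in KO core spanned 1.29 to 28.9 (median 10.3), and KO rim measured 17.5, 1.99, 8.81 and 26.6 in F15, F322, F86 and O. All 15 other libraries thus stood above both of WT rim. Core over rim in WT was called (adjusted p = 0.0162, and 0.169 without H874, 0.337 with quality weights in limma voom and 0.175 with a random replicate block there), and KO over WT in rim was not (adjusted p = 0.193), although DESeq2 called it (adjusted p = 7.09e-07). With so few counts in WT rim the size of the fitted fold change depends on the fit and is not given. It was the only gene called among 12 further interferon gamma induced genes in WT core against rim.

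The immunoproteasome genes had one sign in WT core against rim. All 5 measured higher in every WT core library than in either WT rim library, with log2 fold changes from 0.24 to 0.56 (median 0.29), against 10.1% of all genes whose groups separated that way, and 2 of 5 were called higher against 2.10% of all genes. The gap was narrow for Psmb10, Psme1 and Psme2, which were not called. Their lowest WT core libraries measured 134, 332 and 256 CPM, and their higher WT rim libraries 131, 324 and 252. Psme2 also shares 28.3% of its 50-base stretches with Psme2b. In KO, all 5 were positive for core over rim (0.034 to 0.26), and none was called. For KO over WT the 5 ran from -0.12 to 0.0032 in core and from 0.093 to 0.26 in rim, with no adjusted p below 0.703.

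Psmb8, which encodes the subunit LMP7 (chromosome 17, 34197721 to 34201454), measured 689, 793, 736, 916 and 751 CPM in F164, H719, H873, H876 and the pool of WT core, and 490 and 594 in WT rim (H874, H877). In KO core the range was 644 to 771 (median 725), and KO rim measured 754, 554, 668 and 623 in F15, F322, F86 and O. WT rim H874 was the lowest of all libraries and H876 the highest. The log2 fold change in WT was 0.52 (SE 0.136, adjusted p = 0.0434), and it was 0.15 (SE 0.103) in KO. The call ended without any 1 of 11 libraries (WT core H719, H873, H876 and the pool, KO core F219, F318, F319, F322 and F86, WT rim H874 and KO rim O), at adjusted p between 0.0501 and 0.437.

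Psmb9, which encodes the subunit LMP2 (chromosome 17, 34181987 to 34187764), measured 231, 251, 239, 300 and 267 CPM in F164, H719, H873, H876 and the pool of WT core, and 159 and 190 in WT rim (H874, H877). The 6 KO core libraries lay between 205 and 274 (median 249), and KO rim measured 213, 180, 201 and 222 in F15, F322, F86 and O. Every WT core library was above every rim library of either genotype. Its log2 change was 0.56 (SE 0.141, adjusted p = 0.0362) in WT and 0.26 (SE 0.106, adjusted p = 0.62) in KO, and the call ended without WT core H719, WT rim H874 or WT rim H877 (adjusted p between 0.0544 and 0.401). The annotated span of Psmb9 overlaps that of Tap1 on the other strand, and no source used here states whether the counting used strand.

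The constitutive subunits that these replace had fitted values of the same sign. For WT core over WT rim, Psmb7 had a log2 change of 0.69 (SE 0.153, adjusted p = 0.0211, and 0.293 without H874), Psmb5 of 0.59 (SE 0.195, adjusted p = 0.108) and Psmb6 of 0.41 (SE 0.145, adjusted p = 0.131). As a log2 ratio of CPM, Psmb8 over Psmb5 was 3.78 ± 0.181 (SD, n = 5) in WT core and 3.82 ± 0.18 (n = 6) in KO core, 3.85 ± 0.0559 (n = 2) in WT rim and 3.90 ± 0.228 (n = 4) in KO rim. Psmb9 over Psmb6 was 0.41 ± 0.0998 in WT core and 0.26 ± 0.287 in WT rim, with ranges that overlap. Psmb10 over Psmb7 was 0.68 ± 0.139 in WT core and 1.14 ± 0.0263 in WT rim, with no overlap (0.48 to 0.83 against 1.12 to 1.15). Neither of the first 2 ratios thus separated WT core from WT rim, and the third was lower in WT core. No test was run on the ratios. Psmb5 shares 54.1% of its 50-base stretches with other annotated genes, mostly Gm3375, and its level is uncertain.

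**Figure D5:**
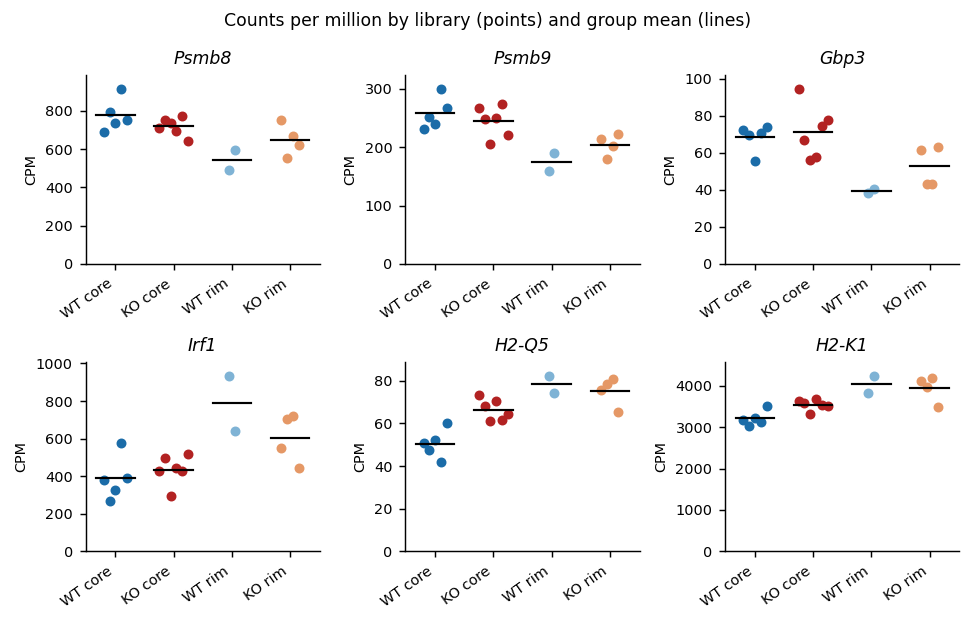
CPM (y axis, from 0) of 6 genes in each library (points) by group (x axis), with lines at the group means. Psmb8, Psmb9 and Gbp3 are lower in both WT rim libraries than in all 5 WT core libraries, and Irf1, H2-Q5 and H2-K1 are higher.

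The 6 genes of peptide trimming and loading showed no call in any comparison. For WT core over WT rim, 5 of 6 were positive (median 0.21), and Tap1, Tapbpl and Pdia3 did not overlap, all higher in core (10.1% of all genes). Pdia3 (ERp57), which supports folding of class I chains, measured 1250, 1430, 1430, 1320 and 1440 CPM in F164, H719, H873, H876 and the pool of WT core and 812 and 1140 in H874 and H877 of WT rim. Levels in KO core spanned 896 to 1650 (median 1550), and KO rim measured 1230, 995, 1340 and 1440 in F15, F322, F86 and O. The log2 fold change in WT was 0.50 (SE 0.203, adjusted p = 0.202), 0.27 without WT rim H874 and 0.77 without WT rim H877.

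Tapbpl (TAPBPR), a peptide editor, measured 175, 161, 185, 194 and 171 CPM in F164, H719, H873, H876 and the pool of WT core and 156 and 127 in H874 and H877 of WT rim. In KO core the range was 170 to 215 (median 186), and KO rim measured 165, 197, 228 and 173 in F15, F322, F86 and O. Both WT rim libraries lay below all others. Its log2 fold change for KO over WT in rim, 0.43 (SE 0.148, adjusted p = 0.515), did not pass. Tap1 and Tap2, the transporter subunits, differed by at most 0.27 in either direction in the 4 comparisons, and Erap1, the trimming peptidase, by at most 0.17. Of 3 chaperones that are not members, Canx was higher in WT core than in WT rim (log2 fold change 0.66, SE 0.158, adjusted p = 0.0303, and 0.289 without H874 or 0.0776 without H877).

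The class I heavy chains had the opposite sign to the immunoproteasome genes. All 7 had negative log2 fold changes for WT core over WT rim (-0.78 to -0.07), of which the main edgeR fit called H2-Q5 alone. B2m, which lay between 4020 and 5620 CPM in all libraries, had 0.16 (SE 0.114, adjusted p = 0.504). Of the 8 chains 5 did not overlap, all lower in core (9.68% of all genes), and 1 was called lower in that fit, against 1.76% of all genes. DESeq2 called H2-K1, H2-Q4 and H2-Q5 lower, beside 726 of all 20137 genes. In KO the 8 ran from -0.25 to -0.0019 with no call. Of the 50-base stretches of the 7 heavy chains, between 9.63% (H2-K1) and 36.4% (H2-Q5) also occur in other genes. Reads may therefore be divided between them, and their signs are not independent.

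H2-Q5, a nonclassical gene annotated as a polymorphic pseudogene (chromosome 17, 35394126 to 35397800), measured 50.8, 47.5, 52, 41.9 and 60.2 CPM in F164, H719, H873, H876 and the pool of WT core and 82.3 and 74.4 in H874 and H877 of WT rim. The 6 KO core libraries lay between 61.3 and 73.1 (median 66.2), and KO rim measured 75.7, 78.7, 81 and 65.3 in F15, F322, F86 and O. WT core was below every other library. Its log2 change was -0.63 (SE 0.137, adjusted p = 0.0196) for core over rim in WT, and 0.40 (SE 0.103, adjusted p = 0.796) for KO over WT in core, where it was the only member whose groups did not overlap. The call ended without H874 (adjusted p = 0.239). Of its 50-base stretches 36.4% occur in other genes, most of them in H2-Q7, so that its count is uncertain.

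H2-K1, a classical chain (chromosome 17, 33996017 to 34000347), measured 3170, 3030, 3230, 3130 and 3500 CPM in F164, H719, H873, H876 and the pool of WT core and 3830 and 4240 in H874 and H877 of WT rim. Levels in KO core spanned 3320 to 3670 (median 3560), and KO rim measured 4110, 3980, 4180 and 3480 in F15, F322, F86 and O. The WT groups did not overlap, and in KO only O of the rim lay within the core range. The log2 fold change was -0.33 (SE 0.0948, adjusted p = 0.0654) in WT, called by DESeq2 (adjusted p = 0.00243) and without KO core F319 or KO rim O (adjusted p between 0.0341 and 0.0464), and -0.15 (SE 0.074, adjusted p = 0.632) in KO.

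H2-D1, the other classical chain and the member with the highest CPM, measured 5160, 4450, 5660, 5430 and 5850 CPM in F164, H719, H873, H876 and the pool of WT core and 5930 and 7090 in H874 and H877 of WT rim. In KO core the range was 4630 to 6660 (median 5910), and KO rim measured 6640, 6300, 6700 and 5700 in F15, F322, F86 and O. Its log2 change in WT was -0.29 (SE 0.144, adjusted p = 0.3). Among 10 further class I genes, H2-Q6 (-0.55, SE 0.135, adjusted p = 0.0335) and H2-T10 (-0.98, SE 0.196, adjusted p = 0.0139) were called lower in WT core than in WT rim (background 1.76%). With only the groups compared neither was called (adjusted p = 0.117 and 0.0867), nor with quality weights in limma voom (adjusted p = 0.0725 and 0.0532). H2-T10 was not called without H874 (adjusted p = 0.265), and H2-Q6 without any 1 of 7 libraries (WT core F164, H719, H873 and the pool, KO core F219, WT rim H874 and H877, adjusted p between 0.0504 and 0.22). The 2 share 32.9% (H2-T10) and 32% (H2-Q6) of their 50-base stretches with other genes.

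Cxcl9 and Cxcl10, chemokines that draw CXCR3-bearing T cells, differed more between libraries than between groups. Cxcl9 measured 25.3, 15.6, 18.8, 72.5 and 23.3 CPM in F164, H719, H873, H876 and the pool of WT core, and 18.4 in H877 of WT rim, where H874 held 1 count (0.0442 CPM). The 6 KO core libraries lay between 11.2 and 49.6 (median 23.3), and KO rim measured 23.1, 2.24, 5.12 and 33 in F15, F322, F86 and O. H874, KO rim F322 and KO rim F86 were the 3 lowest. H874 and F322 of the rim were also the 2 lowest in Cxcl10, which measured 30.2, 15.4, 28.3, 62 and 32.7 CPM in WT core, 9.28 and 26.7 in H874 and H877 of WT rim, between 13.8 and 49.6 (median 30.2) in KO core, and 34.4, 10, 44.3 and 25.2 in F15, F322, F86 and O of KO rim. No comparison of all libraries passed for either (SE between 0.418 and 1.24), but Cxcl9 was called in WT core against rim without WT rim H877. Macrophage transcripts varied with libraries too, C1qb from 16.3 CPM in H877 to 358 in KO rim O, and their part in the chemokine levels was not tested.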

How the data were processed

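RNA from the sorted cells was sequenced and the authors deposited 1 table of whole-number counts per gene and library. Per the submitters' processing notes, cutadapt 3.2, Bowtie2 2.4.5, HISAT2 and featureCounts of Subread 2.0.0 were used with GRCm38 (mm10). Here, edgeR 4.0.16 in R 4.3.3 fitted 4 group means to all 17 libraries at once, with TMM factors and genes kept by filterByExpr (20137 of 27240). Group differences were tested with its quasi-likelihood F test and Benjamini-Hochberg adjustment over all genes tested, at 0.05. The standard error was the log2 fold change divided by the square root of F, and log2 CPM used a prior count of 2.

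CPM here is per library total scaled by TMM, without regard to gene length. A value of 3 counts was taken as the floor, and intervals from counts would cover counting error only. Library totals set that precision. The alternatives were DESeq2 1.42.0, limma 3.58.1 (voom) with quality weights or a random block, other scaling, other filters, only the groups compared, and each library left out in turn.

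Values in every library (in KO core, the lowest, median and highest) are given for members called in any of 5 tests, for the member with the highest mean CPM of each role, and for the 2 members of each role with the smallest unadjusted p. Pathway genes are named where called, and Ifng, Ifngr1, Ifngr2, Psmb5, Psmb6 and Psmb7 always. Jak1, Canx, H2-Q6, H2-T10 and Gbp2b were called. Irgm2, Igtp and Iigp1, and the marker genes, were named after their values were seen. A further pathway item is not reported here. The members and lists were chosen with earlier results of these data known.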

Additional observations from a re-analysis of the deposited data

Results flagged for a closer look

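In 10 of 78 sets of 1 gene and 1 group, 1 library lay far from the others by Dixon's criterion at 95%. Chance meets it in about 1 in 20 sets of normally distributed values. It was applied to CPM without a log scale, for genes measured in the same libraries, so that 10 of 78 cannot be set against that rate. Irf8 was flagged in KO core, where F318 measured 2080 CPM and the next library 556, and in KO rim, where F86 measured 779 CPM and the next 201. F86 of KO rim was also highest in Nlrc5, at 478 CPM with the next at 366.

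In WT core, H876 was highest in Cxcl9 (72.5 CPM, the next 25.3) and in Gbp2b (26.9 CPM, the next 16.8). H719 was highest there in Ifngr2 (49.6 CPM, the next 37.9), and H873 was lowest in Gbp3 (55.3 CPM, the next 69.6). In KO core, F319 was lowest in Pdia3 (896 CPM, the next 1430), and F318 was highest in Ifngr2 (88.8 CPM, the next 50.6). KO rim F322 was lowest in Psmb5 (29.6 CPM, the next 48).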

How the results depend on the processing

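In WT core against rim, the main analysis called 2 members higher and 2 lower. The lower count was 4 with DESeq2. The higher count was 0 with no filter on low counts, where 27240 genes were tested. Fitting only the groups compared gave 0 higher and 0 lower, as did limma voom with quality weights, and leaving out the identifiers F322 and O in both sites gave 1 higher and 0 lower. Over the 17 libraries left out in turn, the higher count ran from 0 to 3 and the lower from 0 to 4. Over all genes, 777 calls in the main analysis became 1907 with DESeq2, 139 with quality weights, 91 with only the groups compared, 457 without F322 and O, 500 without H719, 411 without H873 and 68 without H874. The cause was not tested. No named gene that was called changed sign under any of these settings. The median over the 34 genes lay between 0.12 and 0.23 in every setting.

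Identifiers F322, F86 and O recur in KO core and KO rim. Deviations from the group means correlated at 0.0721, 0.0449 and 0.0818 within them. Among the libraries of these identifiers alone, each correlated best with its own identifier, a weak hint from the data and not from the design. The other KO libraries were not compared in this way. With a fixed replicate block on these, 0 of 15680 genes were called for core over rim in KO, with Gbp3 at 0.50, Irf1 at -0.40 and Psmb9 at 0.30. With a random replicate block, limma voom called 556 genes for WT core over rim, with 1 member higher and 3 lower, and no member in the other comparisons. WT rim holds 2 libraries.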
